A study of Homo sapiens with 20 samples.

Results

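The regions described here are the sites between genes where chromatin binding of BCOR was enriched after dexamethasone in HEK293-GR cells. HEK293-GR is a line derived from human embryonic kidney that constitutively makes the glucocorticoid receptor (GR), and dexamethasone (dex) is a synthetic glucocorticoid. A peak of the deposited dex-enriched list was taken when its centre lay over 1000 bp from every transcription start site (TSS) in the annotation of the RNA count table and inside no annotated transcript. This gave 1119 intergenic dex-enriched peaks of 3055 dex-enriched peaks and of 11909 BCOR peaks in all.

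BCOR is a corepressor that binds the repressor BCL6 and is a subunit of a variant Polycomb complex, PRC1.1, which ubiquitinates histone H2A. GR is a hormone-activated transcription factor that moves into the nucleus with its ligand and binds largely at enhancers, many of them far from promoters. A peak between genes is therefore usually described through its neighbours, since a site's position alone does not name the gene it acts on.

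Binding was measured by ChIP-seq with an anti-BCOR antibody in cells treated for 1 h with 100 nM dex or with vehicle (ethanol), 2 samples each, after 48 h in steroid-depleted medium. Poly(A) RNA was measured in 16 libraries of the same line, 4 each of cells transfected for 72 h with 20 nM of an siRNA pool against BCOR (siBCOR) and treated for 6 h with 100 nM dex, siBCOR cells given vehicle, cells with a non-targeting pool (siNON) given dex, and siNON cells given vehicle. The cells of the RNA libraries were also kept for 48 h in steroid-depleted medium, and all groups carry the added receptor. The binding was measured in cells without siRNA, and the RNA was collected later than the chromatin. The labels call the samples biological replicates. The RNA libraries held 18580294 to 28054808 counts over the transcripts used. BCOR itself averaged 14.7 ± 0.706 CPM (reads of a gene per 1000000 reads, on scaled library sizes) in siBCOR dex cells, 22.3 ± 0.795 CPM in siBCOR vehicle cells, 93.8 ± 15.9 CPM in siNON dex cells and 196 ± 29.4 CPM in siNON vehicle cells (SD, n = 4 each). Of the HEK293 markers, NEFL, VIM, KRT8 and KRT18 were at 128 CPM or more in every library, SOX11 was too low to test, and NEFM, PAX2 and LHX1 were at 10.2 CPM or less. Of markers of other cell types PTPRC, CD3E, COL1A2, DCN, CDH5, ALB and APOB were also too low to test, PECAM1 was at 0.778 CPM or less, CD68 was at 8.54 to 15.5 CPM and COL1A1 at 22.5 to 44.1 CPM. Libraries of 1 group correlated with each other at a median of 0.994 or higher, except siBCOR vehicle replicate 2, siNON dex replicate 4 and siNON vehicle replicate 3, which stood apart at 0.989 to 0.990. In bulk RNA, fewer cells of a type and less RNA per cell cannot be told apart.

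Dex-enriched peaks lay between genes in 36.6% of cases, inside genes in 56.4% and at promoters in 6.97%. Of the 8587 peaks shared between dex and vehicle, 30.3% lay between genes and 35.7% at promoters. Of the 267 vehicle-enriched peaks, 19.5% lay between genes and 48.7% at promoters. The intergenic dex-enriched peaks were uniform in shape: 1095 of them were 335 bp wide and the longest was 627 bp. The deposited lists carry no height or score that varies, so these peaks cannot be ranked by strength, and their class was the submitters' own. The last number of the deposited peak name was 1 for 1093 of these peaks and 2 for 26, while 35.8% of the shared peaks between genes ended in 2; what it counts is not given in the sources used here.

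The peaks lay farther from genes than the shared peaks did. The distance from the centre to the nearest TSS had a median of 37.5 kb (quartiles 15.2 and 86.0 kb) over the 1119 dex-enriched peaks, against 28.2 kb (10.4 and 72.1 kb) over the 2605 shared peaks and 24.5 kb over the 52 vehicle-enriched peaks between genes. Within 10 kb of a TSS lay 17.2% of the dex-enriched and 24.2% of the shared peaks. Beyond 100 kb lay 231 dex-enriched peaks, 20.6%, against 18.0% of the shared ones. The peak was upstream of its nearest TSS in 728 cases (65.1%), against 61.9% of the shared peaks. The rule keeps only centres outside transcripts, so a downstream peak must lie past the transcript's end. That favours the upstream side in every list, and no preference is read from these shares. The closest peak to a TSS stood at 1021 bp, the farthest promoter peak of the same list at 1000 bp, and 32 of the peaks lay 1000 to 2000 bp from a TSS, just outside the promoter window. These shares are counts of positions, and no test was made of their differences.

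**Figure D1:**
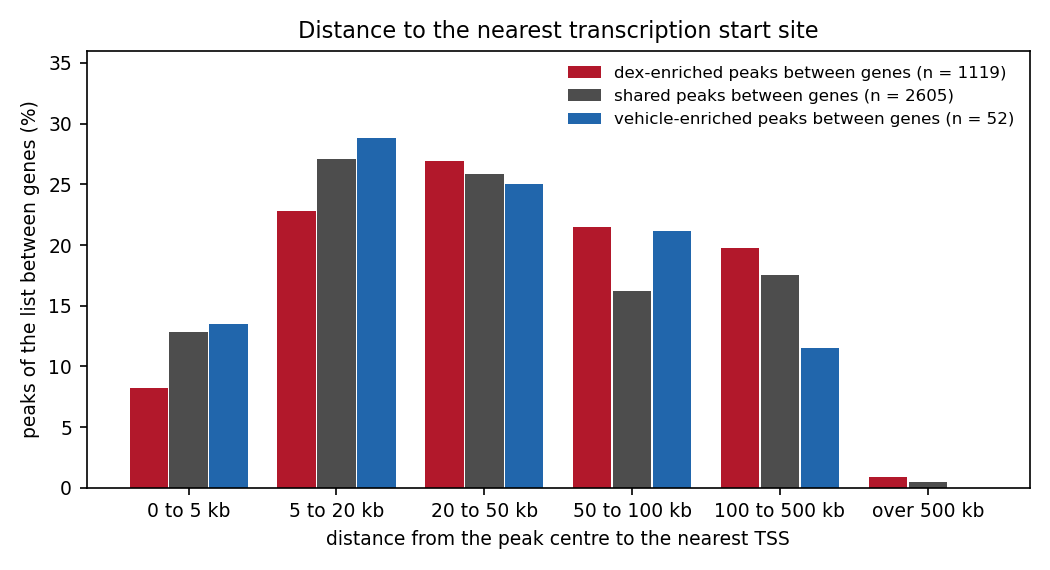
Share of the BCOR peaks between genes (vertical axis, percent of each list) by distance from the peak centre to the nearest annotated transcription start site (horizontal axis), for dex-enriched, shared and vehicle-enriched peaks. Dex-enriched peaks are the smaller share below 20 kb and the larger share beyond 50 kb when set beside the shared peaks.

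The nearest annotated gene coded for protein for 753 peaks (67.3%) and was a non-coding RNA for 339. It had enough reads to be tested for 706 peaks. A tested gene had a TSS within 100 kb of 733 peaks, which gave 644 different nearest genes, and the other 386 peaks had none. Another dex-enriched peak between genes lay within 50 kb of 265 of these peaks (23.7%), while 15.0% of the shared peaks between genes had one that near. A shared peak lay within 10 kb of 143 of them (12.8%), against 19.5% for the shared peaks among themselves. A dex-enriched promoter peak within 50 kb was found for 20 of the 1119.

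Genes beside these peaks rose with dex more often than genes at large. In siNON cells treated with dex, against siNON cells given vehicle, 175 of the 644 nearest genes rose (27.2%) and 77 fell (11.96%). Over all 16432 genes tested, 10.7% rose and 8.64% fell. The median log2 change of the nearest genes was 0.07 against -0.00443 over all genes tested. Their median level was 31.2 CPM, against 22.6 CPM over all genes tested, and the shares were not matched for level. A rise of at least 2-fold was called for 54 of the nearest genes (8.39%), against 2.4% of all genes, and a fall of at least 2-fold for 14 (2.17%), against 1.38%. Genes were called with edgeR's quasi-likelihood test at a Benjamini-Hochberg adjusted p under 0.05 over all genes tested. Without the 3 libraries that stood apart, 195 nearest genes rose and 101 fell, against 12.6% and 14% of all genes.

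Of the genes nearest to shared peaks between genes, 184 of 1439 rose (12.8%) and 242 fell (16.8%). The median level of these 1439 genes was 23.6 CPM. Of the 36 genes nearest to vehicle-enriched peaks between genes, 2 rose and 9 fell. For dex-enriched peaks at promoters and inside genes, 57 of 201 nearest genes (28.4%) and 324 of 1064 (30.5%) rose, shares close to that of the intergenic set. These comparisons use the same RNA libraries throughout, some genes lie near peaks of several kinds, and the differences between peak kinds were not tested. Of the 644 genes, 114 were also nearest to a dex-enriched peak at a promoter or inside a gene, and 48 of these rose (42.1%). Of the other 530 genes, 127 rose (24.0%).

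Distance went with the share of genes that rose. Where the closest intergenic dex-enriched peak lay within 5 kb of the TSS, 28 of 65 genes rose (43.1%) and 9 fell. At 5 to 20 kb, 64 of 174 rose (36.8%) and 15 fell. At 20 to 50 kb, 51 of 215 rose (23.7%) and 18 fell. At 50 to 100 kb, 32 of 190 rose (16.8%) and 35 fell (18.4%). Genes whose closest peak was 100 to 500 kb away, outside the set of 644, rose in 12.6% of 230 cases and fell in 23.0%. The shares around shared peaks between genes did not follow this order: 12.7% of 228 genes rose within 5 kb, 11.3% of 459 at 5 to 20 kb, 14.1% of 454 at 20 to 50 kb and 13.1% of 298 at 50 to 100 kb. The closest peak lay at a median of 18.4 kb from the genes that rose, 41.4 kb from those that fell and 32.7 kb from those not called.

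**Figure D2:**
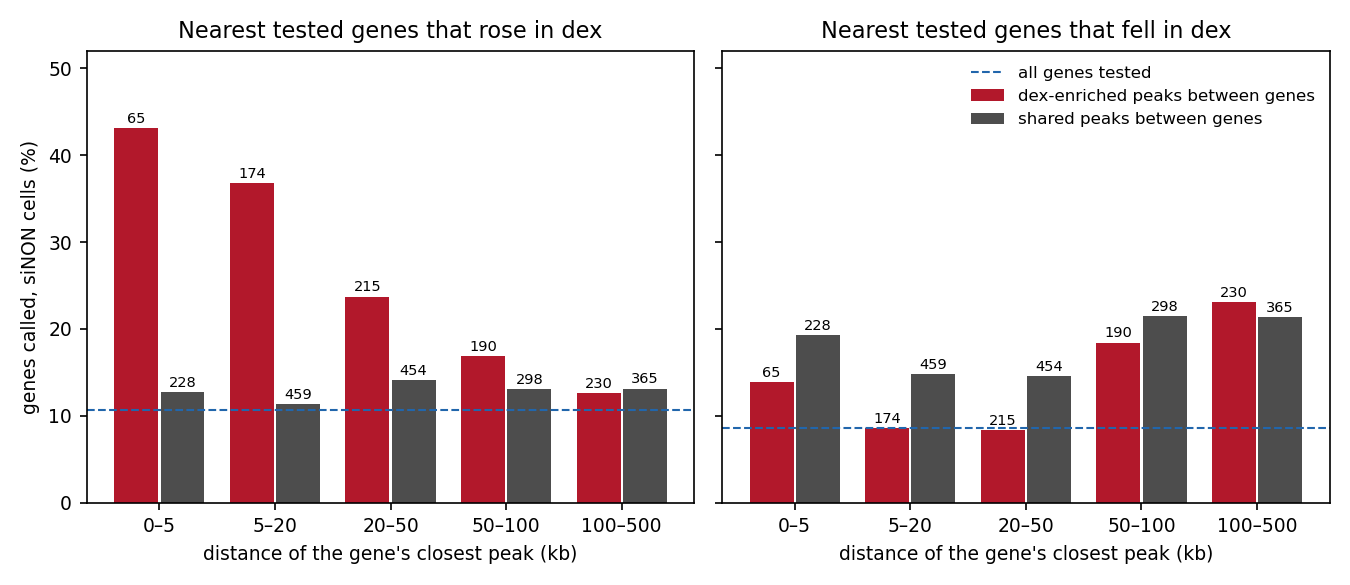
Share of the nearest tested genes called in dex against vehicle in siNON cells (vertical axis, percent; left panel genes that rose, right panel genes that fell) by the distance of the gene's closest peak (horizontal axis, kb). Red bars are genes nearest to dex-enriched peaks between genes, grey bars genes nearest to shared peaks between genes, the number of genes stands on each bar, and the dashed line is the share over all genes tested. The red bars for genes that rose fall from 43.1% to 12.6% with distance, while the grey ones stay between 11.3% and 14.1%.

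How often a gene that rose was the nearest tested gene depended on the window. A median of 1 tested gene lay within 100 kb of a dex-enriched peak, 3 within 250 kb and 6 within 500 kb. Around shared peaks between genes these medians were 1, 3 and 7. Wider windows add genes that are not the nearest, so a share that falls with the window is no finding about the peaks. A gene that rose lay within 100 kb of 267 peaks (23.9%), and for 206 of those it was the nearest tested gene (77.2%). Around shared peaks between genes the corresponding share was 50.2% of 460 peaks. With the limit at 250 kb it was 58.1% of 418 dex-enriched and 33.3% of 911 shared peaks, and at 500 kb 44.3% of 584 and 23.8% of 1355. At 500 kb the share of peaks with a risen gene was 52.2% for dex-enriched and 52.02% for shared peaks. Tested genes within 100 kb that were nearest to none of the peaks numbered 759, of which 15.5% rose and 8.04% fell. For 284 peaks a tested gene lay within 100 kb on each side. Both genes rose at 23 of them, 1 rose and the other was not called at 92, and 1 rose and 1 fell at 5. Both fell at 3, 1 fell and the other was not called at 28, and neither was called at 133. Over all genes tested, 10.7% rose and 8.64% fell. Peaks are counted here, so genes that flank several peaks count more than once. The same count was not made for shared peaks, so no pattern is read from it. Genes with the closest peak upstream rose in 134 of 466 cases (28.8%), and those with it downstream in 41 of 178 (23.0%). A downstream peak must lie past the transcript's end, so side and distance cannot be told apart here, and the difference was not tested.

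The 10 largest rises among the nearest genes had their closest peak at 1.18 to 39.7 kb, with a median of 5.13 kb, and 5 of the 10 were nearest to 2 peaks. PDK4, a kinase that shuts down the pyruvate dehydrogenase complex and so spares glucose, stood at the top. Its peaks were at chr7:95238279-95238613 and chr7:95258233-95258567 (hg19), 12.5 and 32.5 kb upstream of the TSS. PDK4 had 242, 249, 218 and 281 CPM in siNON dex cells, against 5.13, 7.16, 6.72 and 5.59 CPM in siNON vehicle cells. Every dex library was far above every vehicle library, and the log2 change was 5.33 ± 0.118 (SE; adjusted p = 2.95e-15). PDK4 also had a dex-enriched promoter peak.

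CNKSR3, a scaffold protein that promotes sodium uptake through the epithelial sodium channel, had peaks 3.96 and 12.2 kb upstream, at chr6:154835590-154835924 and chr6:154843777-154844111. It had 225, 234, 214 and 197 CPM in siNON dex cells, against 32.7, 30.9, 26.1 and 28.1 CPM in siNON vehicle cells, a log2 change of 2.88 ± 0.0747 (adjusted p = 8.01e-15). The groups stood far apart. CNKSR3 also had a dex-enriched peak inside a gene, 28.9 kb downstream of its start. Shared peaks lay 37.7 and 44.6 kb upstream and 52.6 kb downstream. The promoters of both genes are shown because each gene combined a pair of intergenic peaks with one of the largest rises. They come from RefSeq (GRCh38.p14), each on the minus strand with 250 bases before and 50 after the start: chr7:95596467-95596766 for PDK4 and chr6:154510636-154510935 for CNKSR3. Capitals mark a GR hexamer, TGTTCT or AGAACA on the other strand, with both strands searched, of which each window holds 1.
PDK4: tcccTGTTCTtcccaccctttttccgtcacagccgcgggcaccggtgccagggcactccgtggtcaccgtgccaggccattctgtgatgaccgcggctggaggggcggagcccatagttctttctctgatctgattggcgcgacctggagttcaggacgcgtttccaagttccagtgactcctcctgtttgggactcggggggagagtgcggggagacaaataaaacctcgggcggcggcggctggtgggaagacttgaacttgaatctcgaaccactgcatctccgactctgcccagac
CNKSR3: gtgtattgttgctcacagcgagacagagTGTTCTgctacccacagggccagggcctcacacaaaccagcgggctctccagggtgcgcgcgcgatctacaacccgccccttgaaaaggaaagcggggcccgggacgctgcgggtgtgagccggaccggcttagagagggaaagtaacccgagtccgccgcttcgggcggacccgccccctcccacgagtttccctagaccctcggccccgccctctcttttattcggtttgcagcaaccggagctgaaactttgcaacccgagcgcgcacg
The table was matched by symbol for 490 of the 644 nearest genes and for 4 of the 10 largest rises, and the windows of the other 2, NFKBIA and HELZ2, hold no such hexamer. It stands in the windows of 40 of the 490 nearest genes (8.16%) and of 10 of the 134 matched genes that rose (7.46%). Over the 27305 promoters of this length in the table the share is 14.9%. Those promoters were not limited to tested genes, so no depletion is read from these shares. AP-1 and the STAT and BCL6 type motif were also in fewer of the 490 windows (4.49% each) than of the table (7.76% and 7.88%). The E box (8.57% against 7.44%) and the GR palindrome (0.612% against 0.388%) were in more. A match in a single window is a description of its letters.

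CST1, which encodes a secreted inhibitor of cysteine proteases, had 1 peak, 6.30 kb upstream at chr20:23737706-23738040, and no other BCOR peak within 100 kb. It had 28.9, 30.7, 31.2 and 25.05 CPM in siNON dex cells, against 1.03, 0.870, 0.719 and 1.26 CPM in siNON vehicle cells, a log2 change of 4.89 ± 0.172 (adjusted p = 5.23e-13). SLC2A3, the glucose transporter GLUT3, had 270.3, 267, 272 and 253 CPM in siNON dex cells, against 25.7, 24.2, 22.0 and 24.9 CPM in siNON vehicle cells. SLC2A3 had a single dex-enriched peak, 34.4 kb upstream at chr12:8123103-8123437, and a shared peak lay closer, 24.5 kb upstream. Its log2 change was 3.46 ± 0.0791 (adjusted p = 2.95e-15). For both genes the lowest dex library was many times the highest vehicle library.

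NFKBIA, the inhibitor that holds NF-kB in the cytoplasm, rose by a log2 change of 2.79 ± 0.0698 and had 1 peak, 13.6 kb downstream of its TSS at chr14:35860154-35860488, with no other BCOR peak within 100 kb. KCNG1, a modulatory potassium channel subunit, rose by 2.76 ± 0.127 with peaks 3.18 and 98.2 kb upstream at chr20:49642692-49643026 and chr20:49737685-49738019. ADAMTS8, a secreted metalloprotease, rose by 2.33 ± 0.108 with peaks 1.18 and 5.90 kb upstream at chr11:130299905-130300239 and chr11:130304621-130304955. The remaining 3 were LINC01647, with a peak 39.7 kb upstream at chr1:11629684-11630018 and a log2 change of 3.26 ± 0.128, HELZ2, a helicase that coactivates nuclear receptors, with a peak 1.49 kb upstream at chr20:62206916-62207250 and a change of 2.43 ± 0.153, and MYOM2, a sarcomere protein, with peaks 1.25 and 32.9 kb upstream and a change of 2.72 ± 0.111. LINC01647 also had shared peaks nearer to its start, 16.8 kb upstream and 10.7 kb downstream. MYOM2 also had a shared promoter peak 0.597 kb upstream and a dex-enriched peak inside a gene 5.52 kb downstream. Adjusted p was 1.61e-09 or lower for all 10, and no dex library overlapped a vehicle library, as the rule for naming required.

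**Figure D3:**
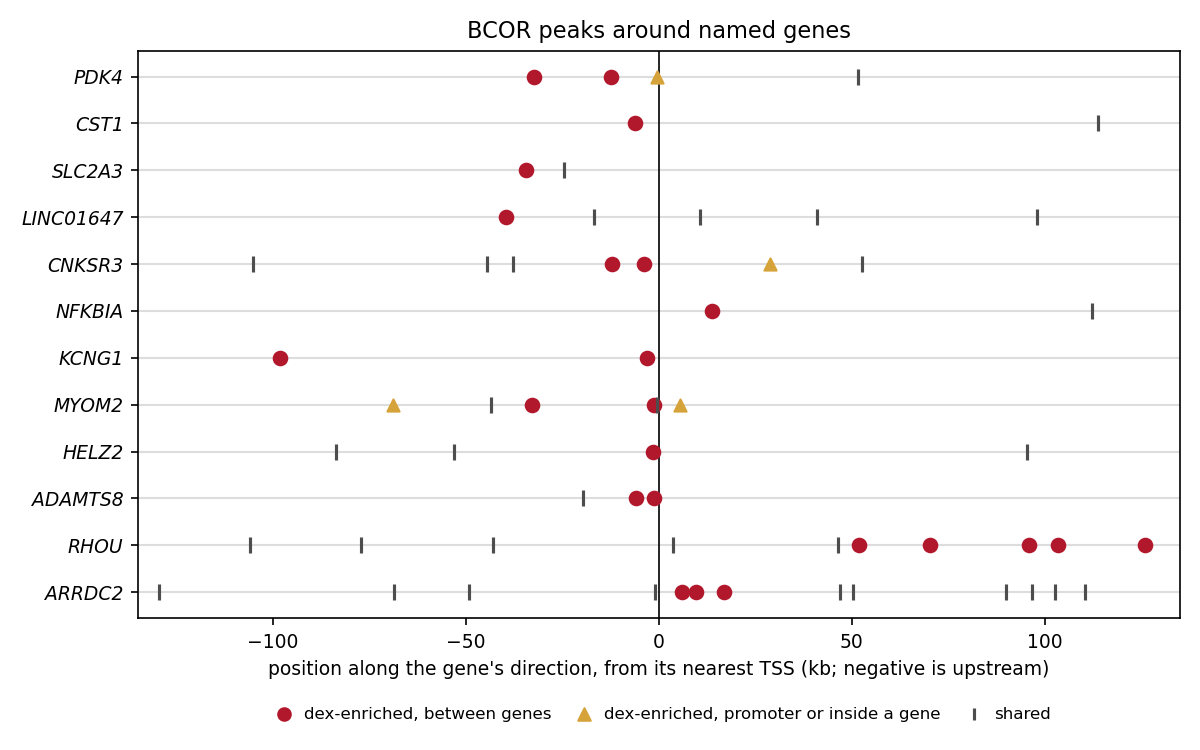
Positions of BCOR peaks around the 10 genes with the largest rises and RHOU and ARRDC2, genes beside groups of peaks (rows), in kb along the direction of the gene from its nearest start site (horizontal axis, negative is upstream). Red circles are dex-enriched peaks between genes, triangles other dex-enriched peaks, and bars shared peaks. The red circles of the top 10 rows lie mostly upstream, and those of RHOU and ARRDC2 lie downstream. Peaks between genes are by rule outside transcripts, which favours the upstream side.

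The 10 largest falls had their closest peak farther away, at 1.34 to 97.6 kb with a median of 58.05 kb, and FGFR2 alone of the 10 was nearest to 2 peaks. HES1, a repressor that carries out Notch signals, had a peak 55.0 kb upstream at chr3:193798803-193799137. It had 14.5, 15.5, 13.9 and 11.7 CPM in siNON dex cells, against 65.9, 62.9, 51.0 and 63.5 CPM in siNON vehicle cells, and fell by 2.12 ± 0.110 on the log2 scale (adjusted p = 1.02e-10). GPRC5A, an orphan receptor first found as induced by retinoic acid, had 5.86, 5.53, 6.64 and 4.26 CPM in siNON dex cells, against 25.5, 20.2, 21.1 and 21.9 CPM in siNON vehicle cells, with a peak 13.8 kb upstream at chr12:13029973-13030307. It fell by 1.98 ± 0.121 (adjusted p = 1.04e-09). Within 100 kb GPRC5A also had 1 vehicle-enriched peak between genes, 1 shared promoter peak and 1 shared peak inside a gene, and HES1 had 1 shared peak between genes. Neither gene's groups overlapped.

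FGFR2, a fibroblast growth factor receptor, had 29.0, 29.8, 28.2 and 24.4 CPM in siNON dex cells, against 65.3, 63.9, 55.8 and 56.7 CPM in siNON vehicle cells. It fell by 1.12 ± 0.0773 (adjusted p = 5.43e-09) and was nearest to chr10:123229529-123229863 and chr10:123425462-123425796, 61.1 and 67.7 kb from its start sites. ZNF608, a zinc finger gene, fell by 1.11 ± 0.0698 with the closest peak 79.9 kb upstream at chr5:124160515-124160849, one of a group of 3. RFESD fell by 1.58 ± 0.128 with a peak 2.30 kb upstream at chr5:94980015-94980349, and HOXC4, a homeobox gene, fell by 1.38 ± 0.0786 with a peak 1.34 kb upstream at chr12:54409126-54409460. The HOXC4 transcript overlaps its neighbours in the cluster, so its reads may be shared with them. UNC5C, a netrin receptor, ATXN1 and LOC101928358 fell by 1.23, 1.07 and 1.49, with peaks at chr4:96560455-96560789, chr6:16844542-16844876 and chrX:108077233-108077567, which were 90.3, 83.0 and 97.6 kb away. SEMA3D, a secreted guidance protein, fell by 1.06 ± 0.257 (adjusted p = 0.00629) with a peak 32.7 kb upstream at chr7:84783765-84784099, and siNON vehicle replicate 3, one of the libraries that stood apart, was its highest at 12.1 CPM against 5.73 to 6.62 CPM in the other vehicle libraries.

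**Figure D4:**
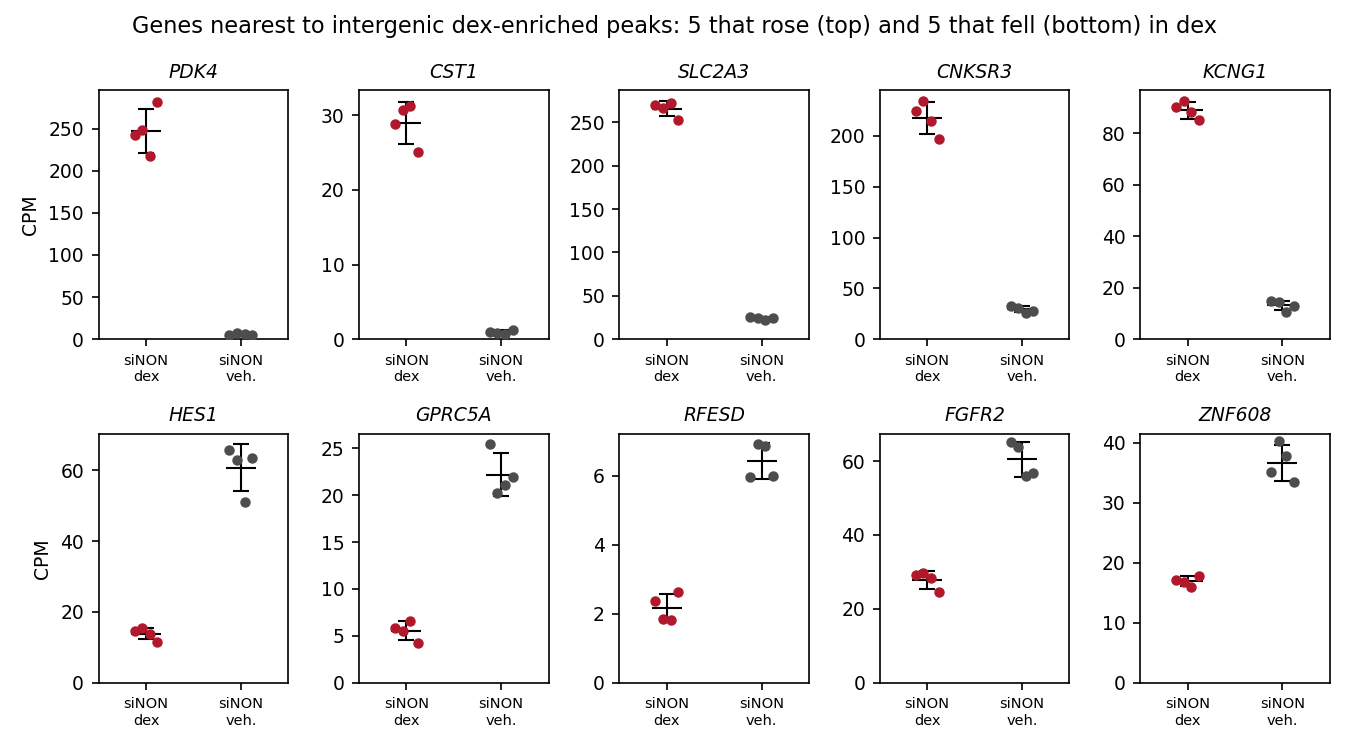
Level in each library (points, CPM on scaled library sizes, vertical axis from 0) of 5 genes that rose and 5 that fell, in siNON dex (left) and siNON vehicle (right) cells, with the mean and SD of 4 libraries. The dex and vehicle libraries of every gene shown are separated by a gap.

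Genes of lists taken from textbook knowledge were described by count. The lists were chosen with earlier results of these data known, so their counts are no independent support. Over all genes tested, 10.7% rose and 8.64% fell. Of 42 glucocorticoid-induced genes 40 were tested, of which 30 rose and 1 fell, and 14 were nearest to an intergenic dex-enriched peak, of which 9 rose and 1 fell. The 14 are 35% of the 40, where 3.92% of all genes tested were nearest to such a peak. The 14 had a median log2 change of 1.01, against 1.35 for the 40. RHOB, a small GTPase of the actin cytoskeleton, had 465, 491, 433 and 448 CPM in siNON dex cells, against 144, 125, 114 and 124 CPM in siNON vehicle cells, and peaks 8.29 kb, 65.2 kb and 93.1 kb away. DUSP1, a phosphatase that switches off MAP kinases, had 81.3, 94.2, 73.4 and 83.3 CPM in dex, against 34.9, 31.4, 29.6 and 30.0 CPM in vehicle, and a peak 35.3 kb downstream. Both rose, by log2 changes of 1.86 ± 0.0803 and 1.40 ± 0.0782. The other 5 that rose were BCL6, the repressor that recruits BCOR (1.30 ± 0.0928), TSC22D3, the anti-inflammatory GILZ (1.57 ± 0.117), TNFAIP3, an NF-kB inhibitor (1.12 ± 0.0947), ERRFI1, an inhibitor of the EGF receptor (0.91 ± 0.0651), and SOCS2 (0.62 ± 0.0939), with peaks 63.4, 5.54, 56.5, 21.3 and 19.9 kb away. FGFR2, which the list also holds, was the 1 that fell. These 5, other than SOCS2, and the genes not called were chosen after their values were seen. KLF9, DDIT4, IRS2 and KLF6 were not called, at log2 changes of 0.20, 0.42, 0.23 and -0.22.

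Of 79 developmental genes of the kind that Polycomb complexes bind, 72 were tested, of which 4 rose and 50 fell. Over all genes tested these shares were 10.7% and 8.64%, and this list too was chosen with earlier results known. Of the 72, 11 were nearest to an intergenic dex-enriched peak (15.3%), and of these 2 rose and 5 fell. The 5 were HES1, HOXC4, EYA1 (log2 change -1.06 ± 0.0865), TBX2 (-0.59 ± 0.0940) and GATA6 (-0.42 ± 0.0990). The 2 that rose were SOX9, a factor of cartilage and progenitor cells, at 1.19 ± 0.125 with its peak 44.4 kb downstream, and MSX2, a homeobox gene, at 1.08 ± 0.0991 with peaks 13.1 and 15.1 kb away; SOX9, TBX2 and GATA6 were chosen after their values were seen. Of 28 immediate early genes tested, 3 rose and 12 fell; 3 were nearest to a peak (10.7%) and of these IER5 fell (-0.84 ± 0.0870). Of 38 growth control genes tested, 5 rose and 13 fell; 4 were nearest (10.5%) and of these FGFR2 fell. Of 60 adhesion and migration genes tested, 8 were nearest (13.3%), of which RHOB, RHOU and ITGA6 rose and SEMA3D, EFNB2 and ALCAM fell; over the 60, 8 rose and 27 fell. ITGA6, an integrin subunit chosen after its value was seen, rose by 0.38 ± 0.0916.

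Nearest genes also rose with dex in BCOR-depleted cells. In siBCOR cells treated with dex, against siBCOR cells given vehicle, 163 of the 644 nearest genes rose (25.3%) and 88 fell (13.7%), where 10.5% and 12.5% of all genes did. Rises of at least 2-fold were 60 (9.32%), against 2.47% of all genes. PDK4 had 410, 340, 388 and 357 CPM in siBCOR dex cells, against 6.66, 5.54, 6.62 and 7.05 CPM in siBCOR vehicle cells, a log2 change of 5.85 ± 0.1197. CNKSR3 rose by 2.79 ± 0.0744 and HES1 fell by 1.98 ± 0.109 in these cells.

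Whether BCOR depletion changed the dex response was tested as the difference between the responses. Of the 644 genes, 1 responded more in siBCOR than in siNON cells and 2 less, where 0.0183% and 0.0791% of all genes were called. RHOU, an atypical small GTPase, had 131, 126, 121 and 118 CPM in siBCOR dex cells, 40.6, 32.0, 37.8 and 34.2 CPM in siBCOR vehicle cells, 94.8, 93.8, 90.1 and 108 CPM in siNON dex cells, and 42.7, 46.4, 53.2 and 45.7 CPM in siNON vehicle cells. Its log2 response was 1.77 ± 0.0862 in siBCOR and 1.04 ± 0.0846 in siNON cells, a difference of 0.73 ± 0.119 (adjusted p = 0.0351). The siBCOR libraries were the higher in dex and the lower in vehicle.

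SNX33, a sorting nexin that shapes membranes, had 41.95, 45.6, 43.6 and 42.2 CPM in siBCOR dex cells, 19.7, 21.7, 17.8 and 20.1 CPM in siBCOR vehicle cells, 53.4, 54.2, 59.3 and 50.7 CPM in siNON dex cells, and 17.1, 16.4, 15.2 and 15.7 CPM in siNON vehicle cells. Its response was 1.13 ± 0.0726 against 1.76 ± 0.0738, a difference of -0.63 ± 0.102 (adjusted p = 0.0351), with a peak 2.00 kb upstream. SLC39A14, a zinc transporter, had 293, 274, 299 and 289 CPM in siBCOR dex cells, 217, 198, 204 and 184 CPM in siBCOR vehicle cells, 405, 425, 396 and 353 CPM in siNON dex cells, and 206, 194, 191 and 194 CPM in siNON vehicle cells, a difference of -0.48 ± 0.0884 (adjusted p = 0.0472), with a peak 4.84 kb upstream. For both genes every siNON dex library was above every siBCOR dex library. In vehicle the libraries of SLC39A14 overlapped, while every siBCOR library of SNX33 was above every siNON library. These 3 calls were close to the threshold: of 24 other settings, 11 kept the call for RHOU, 7 for SNX33 and 5 for SLC39A14. Leaving out siNON dex replicate 4, a library that stood apart, gave 50 nearest genes above 0 (7.76%) and 54 below (8.39%), against 8.7% and 6.62% of all genes.

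**Figure D5:**
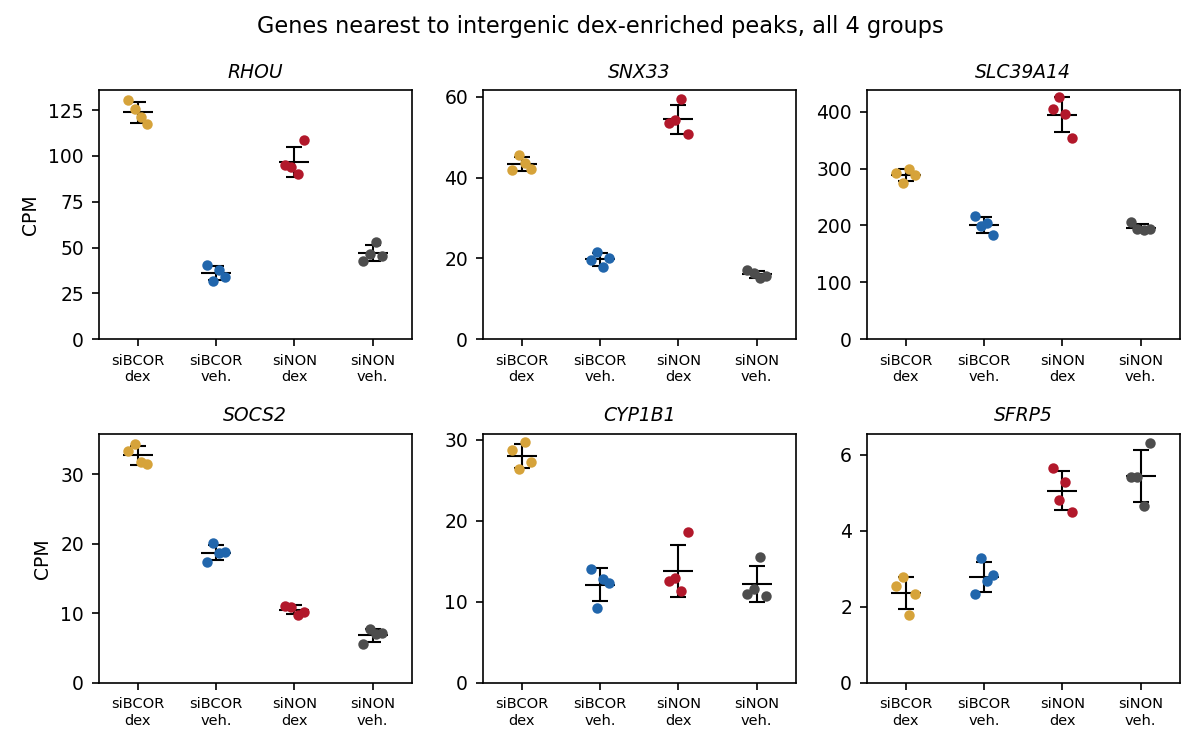
Level in each library (points, CPM, vertical axis from 0) of 6 genes nearest to intergenic dex-enriched peaks in siBCOR dex, siBCOR vehicle, siNON dex and siNON vehicle cells, with the mean and SD of 4 libraries. RHOU, SNX33 and SLC39A14 are the genes whose dex response differed between siBCOR and siNON cells, and SOCS2, CYP1B1 and SFRP5 differed between siBCOR and siNON cells in dex.

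BCOR depletion moved the nearest genes about as often as other genes. In dex, 157 of the 644 were higher in siBCOR than in siNON cells (24.4%) and 121 lower (18.8%), against 20.7% and 18.8% of all genes; with upper-quartile scaling the counts were 122 higher and 152 lower, against 17.1% and 22.6% of all genes, so the balance of directions depended on the scaling. In vehicle, 62 were higher (9.63%) and 56 lower (8.70%), against 8.87% and 8.23%. These counts moved with the libraries that stood apart: without all 3, 192 were higher and 199 lower in dex, against 28.1% and 29.3% of all genes, and 134 higher and 147 lower in vehicle, against 17.6% and 21.1%. Leaving out siNON dex replicate 1, 2 or 3 alone gave 103, 99 and 92 higher in dex, against 12.6%, 12.4% and 11.6% of all genes. Leaving out siBCOR vehicle replicate 1 gave 38 higher in vehicle, against 5.38% of all genes. Leaving out siNON vehicle replicate 3 gave 86 lower in vehicle, against 12.2% of all genes. Direction in dex went with distance: 9 of 65 genes were higher and 18 lower where the closest peak lay within 5 kb, and 49 of 190 higher and 20 lower at 50 to 100 kb. Around shared peaks between genes the same bins gave 26 of 228 higher and 60 lower, and 60 of 298 higher and 47 lower. These values share the siNON dex libraries with the dex comparison in siNON cells.

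SOCS2, a suppressor of cytokine signalling, was the largest rise with BCOR depletion in dex. It had 33.3, 34.4, 31.8 and 31.4 CPM in siBCOR dex cells, against 11.1, 11.0, 9.75 and 10.2 CPM in siNON dex cells, a log2 difference of 1.64 ± 0.0883 (adjusted p = 6.07e-09), with a peak 19.9 kb downstream at chr12:93986058-93986392. In vehicle the difference was 1.45 ± 0.0918. CYP1B1, a cytochrome P450 that oxidises steroids and xenobiotics, had 28.7, 26.4, 29.7 and 27.2 CPM in siBCOR dex cells, against 12.5, 12.9, 11.3 and 18.5 CPM in siNON dex cells, a difference of 1.03 ± 0.151 (adjusted p = 0.000136), with a peak 20.2 kb upstream. The libraries of neither gene overlapped, and the highest siNON value of CYP1B1 was that of replicate 4. SESN3, ZNF214 and PRTG were higher by 1.12 ± 0.240, 0.88 ± 0.242 and 0.88 ± 0.234, and replicate 4 was the highest siNON dex library in each.

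Among the genes lower with BCOR depletion, SFRP5, a secreted WNT antagonist, had 2.54, 2.79, 1.78 and 2.35 CPM in siBCOR dex cells, against 5.64, 4.79, 5.28 and 4.48 CPM in siNON dex cells, a difference of -1.08 ± 0.141 (adjusted p = 4.36e-05), with a peak 8.54 kb upstream at chr10:99540127-99540461. PLLP, a myelin membrane protein, was lower by -1.15 ± 0.143 in dex, and its difference in vehicle, -0.39 ± 0.133, was not called. CREB3L1, a transcription factor of the secretory pathway, TMEM171 and RASGRF1, a Ras activator, differed by -1.15 ± 0.248, -1.04 ± 0.136 and -0.91 ± 0.165. All 5 are expressed at low levels in this line, and their libraries did not overlap in dex.

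Most of the peaks stood alone. Chained at gaps of at most 50 kb, the 1119 peaks formed 854 single sites, 103 pairs and 19 groups of 3 or more that held 59 peaks. Of these 19 groups, 18 had 3 peaks and 1 had 5, and their span was 9.37 to 86.7 kb. A tested gene lay within 100 kb of 13 of the 19 groups, with a risen gene at 6 (31.6%) and a fallen gene at 2. Single sites had a risen gene in 23.4% of cases and pairs in 26.2%. Genes nearest to 1 peak rose in 148 of 564 cases (26.2%), those nearest to 2 in 23 of 71 (32.4%), and those nearest to 3 or more in 4 of 9. Rises of at least 2-fold were 36 of 564 (6.38%), 14 of 71 (19.7%) and 4 of 9. Over all genes tested, 10.7% rose and 2.4% rose at least 2-fold. A group spans more sequence than a single site, so genes were sought over a wider stretch around it. Differences by number of peaks were not tested.

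The group with most peaks lay downstream of RHOU on chromosome 1, where 5 peaks at 51.97, 70.1, 96.0, 103 and 126 kb from the TSS spanned chr1:228922631-228997188. RHOU was the only tested gene within 100 kb. Shared peaks lay nearer to its start, among them 1 inside a gene 3.55 kb downstream and 1 between genes 46.3 kb downstream.

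A group of 3 began 6.01 kb downstream of the ARRDC2 start site and ended 16.9 kb from it, at chr19:18124815-18136010. ARRDC2, an arrestin-domain gene, had 21.6, 24.9, 23.3 and 20.0 CPM in siNON dex cells, against 11.3, 11.0, 10.3 and 11.0 CPM in siNON vehicle cells, a log2 change of 1.05 ± 0.0852 (adjusted p = 4.72e-08). The other 4 tested genes within 100 kb were not called: IL12RB1 (-0.15 ± 0.320), KCNN1 (-0.47 ± 0.176), MAST3 (0.16 ± 0.151) and CCDC124 (-0.02 ± 0.1199). The 1 gene called there was the gene next to the peaks.

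The other groups described were among the tightest of 3 peaks, and of their tested genes 1 was called. A group of 3 at chr3:14316579-14337622 was nearest to LINC01267, and of its tested neighbours LSM3 was not called in siNON cells (0.10 ± 0.0788) while XPC, a sensor of DNA damage, rose by 0.32 ± 0.0774. One at chr12:67419344-67441894 was nearest to LOC102724421 and had no tested gene within 100 kb. One at chr1:229344516-229367394, between MIR4454 and RAB4A, had RAB4A, LOC105373159 and SPHAR in reach, at 0.14 ± 0.0736, -0.01 ± 0.108 and -0.16 ± 0.202, none called.

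Some of the peaks stood in gene deserts. The TSSs on either side of a peak were a median of 178 kb apart, and 52 peaks (4.65%) lay in intervals over 1000 kb. Over 500 kb from every TSS were 10 peaks (0.894%), against 0.461% of the shared peaks between genes. The farthest, chr5:91888023-91888524, lay 1018.8 kb from NR2F1-AS1, a non-coding RNA, on one side and 1209.1 kb from ARRDC3 on the other, and a second peak of the same desert stood at chr5:92137726-92138060, 769 kb from NR2F1-AS1. The next were chr2:146509841-146510175, 835 kb from PABPC1P2 and 1084.5 kb from TEX41, a pair at chr1:88452576-88452910 and chr1:88444980-88445314 in the interval between LINC01364 and PKN2, and chr6:93516004-93516338, 613 kb from EPHA7 and 1116 kb from CASC6.

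The tested genes that flank the 10 desert peaks numbered 16, at 511 to 2219.2 kb. Of these 1 rose and 3 fell in siNON cells, where 10.7% and 8.64% of all genes tested did. A set of 16 genes is too small to tell such counts from those shares. EPHB1, an ephrin receptor, was 646 kb from its peak and had 17.1, 17.8, 17.9 and 13.95 CPM in siNON dex cells, against 9.11, 10.1, 6.94 and 9.02 CPM in siNON vehicle cells, a log2 change of 0.93 ± 0.119 (adjusted p = 1.46e-05). LMO4, a LIM-domain adaptor, fell by 0.38 ± 0.0539, NR2F1-AS1 by 0.47 ± 0.113 and ZEB2, a zinc finger repressor 1232.1 kb from its peak, by 0.77 ± 0.155. ZEB2 was highest in siNON vehicle replicate 3, at 21.3 CPM against 12.9 to 13.8 CPM in the other vehicle libraries. In siBCOR cells ZEB2 was not called, at -0.19 ± 0.150. The other 12 genes were not called in siNON cells, KLF4, ARRDC3 and EPHA7 among them.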

How the data were processed

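BCOR ChIP-seq and poly(A) RNA-seq of HEK293-GR cells were analysed from the deposited files. The submitters' processing notes name hg19, FastQC, Trimmomatic, Bowtie 0.12.9, TopHat2, HOMER 4.10.3 and bedtools without assigning each a role; how the peak classes were defined is not given in the sources used here. The authors deposited 3 peak lists, whose score column is 0 throughout, and a table of raw read counts per RefSeq transcript (65572), per the file headers. The series text speaks of 3 RNA replicates, and 4 per group are labelled and were used.

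Each gene was represented by its transcript with most reads (27896 symbols). The 134 transcripts without a gene name held 0.0665% of counts and stayed out of the tests, but counted as TSSs. Counts were filtered with filterByExpr and tested with edgeR 4.0.16 (R 4.3.3; glmQLFit and glmQLFTest, TMM) as 4 group means over 16 libraries; the SE is the log2 change divided by the square root of F. CPM used TMM-scaled library sizes. On simulated counts for dex against vehicle in siNON cells the fit was checked for recovery of known changes. Each peak was assigned the nearest tested gene within 100 kb of its centre. DESeq2 1.42.0 was an alternative. The genes named were, in each direction, the 10 largest called changes among nearest genes that averaged 50 or more reads and whose libraries were fully separated, the genes called in the difference of responses, the 5 largest in each direction with BCOR depletion in dex, up to 4 called per list, the 6 peak groups with most peaks (ties by span, shortest first) and the 6 farthest peaks. One of the peak groups is not reported here. The peaks, lists and rules were chosen with earlier results of these data known. Peak sequences were not used here, since no hg19 genome was at hand, so the planned motif search was made in promoters only. Coordinates are hg19, counted from 1, unless RefSeq is named. Replicate numbers did not pair the libraries: 6 of 24 same-numbered pairs correlated over 0.1.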

Additional observations from a re-analysis of the deposited data

Results flagged for a closer look

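Among the named genes, a library stood far from the other 3 of its group in 10 of 212 groups looked at, and chance flags about 1 in 20. In siNON vehicle cells, replicate 3 had the highest value of SEMA3D (12.1 CPM against 5.73 to 6.62), SESN3 (89.8 against 49.0 to 55.5), CYP1B1 (15.5 against 10.7 to 11.5) and ALCAM (112 against 71.7 to 74.9). In siNON dex cells, replicate 4 was high for ZNF214 (3.87 CPM against 1.66 to 1.92) and low for MSX2 (25.2 against 29.7 to 30.2). In siBCOR vehicle cells, replicate 2 was high for ADAMTS8 (14.3 CPM against 10.2 to 10.5) and low for NR3C1, the gene of the receptor (1052 against 1121 to 1129). In siBCOR dex cells, ATXN1 was low in replicate 4 (20.4 CPM against 24.1 to 24.6) and IL12RB1 high in replicate 3 (0.867 against 0.521 to 0.568).

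The dex response differed between siBCOR and siNON cells, by edgeR's test of the difference, for RHOU (log2 difference 0.73), SNX33 (-0.63) and SLC39A14 (-0.48).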

How the results depend on the processing

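Under every alternative run, the nearest genes that rose with dex in siNON cells outnumbered those that fell. Leaving out each replicate in turn gave 150 to 183 that rose and 60 to 87 that fell in siNON cells. In the same runs 8.29% to 12.5% of all genes rose and 6.92% to 11.9% fell. In siBCOR cells it gave 144 to 188 and 72 to 96, against 7.94% to 14.5% and 9.55% to 14.1% of all genes. With BCOR depletion in dex, 92 to 182 were higher and 93 to 161 lower, against 11.6% to 27% and 14.5% to 22.3%. In vehicle these were 38 to 73 and 40 to 86, against 5.38% to 10.6% and 5.61% to 12.2%. For the difference of responses, 0 to 50 were above and 0 to 54 below 0, against 0% to 8.7% and 0.0121% to 6.62%.

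With the nearest gene limited to 50 kb, 42 fell in siNON and 57 in siBCOR cells, 37 were lower with depletion in vehicle, and 0 were above 0 in the difference of responses. This limit leaves out the 190 genes whose closest peak lay 50 to 100 kb away, so the set is smaller. Over all genes 8.64% and 12.5% fell, 8.23% were lower and 0.0183% were above 0. Counting every tested gene within 100 kb adds 759 genes to the 644, and the shares over all genes stay those of the main fit. It gave 293 that rose and 138 that fell in siNON cells, against 10.7% and 8.64% of all genes. For siBCOR cells it gave 273 and 186, against 10.5% and 12.5%. With depletion it gave 297 higher and 282 lower in dex, against 20.7% and 18.8% of all genes. For vehicle it gave 142 and 121, against 8.87% and 8.23%, and 4 were below 0 in the difference, against 0.0791%. With only peaks over 5000 bp from every TSS, DESeq2 size factors, upper-quartile scaling or no filter on low counts, 0 were below 0 in the difference; DESeq2 gave 5 above and 5 below. With no filter, 36 were higher with depletion in vehicle, against 3.64% of all genes. With only the groups of the contrast 32 were higher and 36 lower in vehicle, against 4.55% and 5.05% of all genes. The fit with a replicate block gave 0 above and 0 below in the difference and changed no other count of the nearest genes by over 1.5 times.

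Without both siNON libraries that stood apart, 193 were lower with depletion in dex and 107 in vehicle, against 27.3% and 15.1% of all genes. In the difference 41 were above and 31 below 0, against 7.19% and 3.64%. Without all 3, chosen after seeing the data, 199 were lower in dex, against 29.3% of all genes. In vehicle 134 were then higher and 147 lower, against 17.6% and 21.1%. In the difference 58 were above and 30 below 0, against 8.64% and 3.85%. Groups of 3 or more peaks numbered 10 with gaps up to 25 kb and 37 with gaps up to 100 kb, and deserts held 63 peaks at over 250 kb and 1 at over 1000 kb. Of 6557 values of single named genes under the alternatives, 6336 were called or not called as in the main fit. A call was lost in 112 and gained in 109, and none changed sign while called. The 6336 include values that were called in neither fit. The causes were not tested. The peak lists hold no heights, so binding was described by position.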
